A study of Mus musculus with 8 samples.

Results

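Antigen presentation was examined through the genes of the mouse H2 complex and the genes that load their products with peptide. The members were taken by symbol: every symbol that starts with H2-, together with B2m, Cd74, Tap1, Tap2, Tapbp, Ciita and Nlrc5. This rule found 52 of 51822 symbols, of which 45 were named H2-, 36 belonged to class I, 12 to class II and 4 to neither. RNA sequencing was done on osteoblast progenitors, cells that mature into bone-forming osteoblasts, in medium with ascorbic acid, dexamethasone and β-glycerophosphate. The sample labels name the cells as MC3T3-E1, an osteoblastic cell line, whereas the methods name cultured calvarial cells, so the source of the cells could not be settled. Control cells are labelled as without LAMZ, and treated cells received LAMZ (locamidazole, an aminoindazole derivative) at 1 μmol·L−1. Compounds were dissolved in DMSO, and whether these control cultures received DMSO alone is not stated. RNA was taken after 7 or 14 days of culture, which made 4 groups of 2 libraries, or 8 libraries. The labels do not say whether the libraries of a group came from separate cultures, so p values measure the spread between these libraries.

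Class I molecules sit on nearly all nucleated cells and show peptides from inside the cell to CD8 T cells. A heavy chain encoded in the H2 complex pairs with β2-microglobulin in the endoplasmic reticulum, where peptides made by the proteasome arrive through the TAP transporter and are loaded with the help of tapasin. Class II molecules are made mainly by dendritic cells, B cells and macrophages. They show peptides from endosomes to CD4 T cells, and their assembly depends on the invariant chain and on the H2-DM exchange factor. Interferon γ raises both classes, in part through NLRC5 for class I and through CIITA for class II.

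Promoter sequences show some of the known regulatory letters that these genes carry. RefSeq promoters on GRCm38.p6, which run from shortly before to shortly after the start of a gene, were given for 35 of the 52 members, 26 of class I and 8 of class II among them. Stretches before the RefSeq start are printed 5′ to 3′ on the strand of the gene for members whose values are compared below. Motif matches are in capitals. The stretches were chosen for the classical heavy chains H2-D1 and H2-K1, of which only H2-D1 passed the threshold as deposited, for the light chain B2m and the non-classical H2-T22, and for the class II genes H2-DMb1 and H2-Aa. Gene positions given below come from GENCODE, another annotation, whose starts can differ. By GENCODE the H2-D1 stretch lies inside the gene, which starts at 35262730. The H2-DMb1 stretch runs past the GENCODE start at 34153072.

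H2-D1, chr17:35262864-35263053, + strand: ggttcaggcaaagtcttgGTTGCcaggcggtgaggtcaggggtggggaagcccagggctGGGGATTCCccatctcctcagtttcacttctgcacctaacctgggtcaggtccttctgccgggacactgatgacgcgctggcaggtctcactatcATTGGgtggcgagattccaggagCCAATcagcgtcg
H2-K1, chr17:34000348-34000517, − strand: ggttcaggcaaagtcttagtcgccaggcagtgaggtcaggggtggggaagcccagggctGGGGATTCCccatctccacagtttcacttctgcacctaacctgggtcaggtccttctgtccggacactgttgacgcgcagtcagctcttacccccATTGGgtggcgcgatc
B2m, chr2:122147517-122147656, + strand: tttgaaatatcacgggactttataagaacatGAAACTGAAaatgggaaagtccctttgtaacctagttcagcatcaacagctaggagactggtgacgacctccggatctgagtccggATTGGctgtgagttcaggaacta
H2-T22, chr17:36042793-36042952, − strand: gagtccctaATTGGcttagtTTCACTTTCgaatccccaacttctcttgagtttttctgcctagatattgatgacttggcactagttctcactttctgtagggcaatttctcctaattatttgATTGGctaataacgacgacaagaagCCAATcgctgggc
H2-DMb1, chr17:34153041-34153150, + strand: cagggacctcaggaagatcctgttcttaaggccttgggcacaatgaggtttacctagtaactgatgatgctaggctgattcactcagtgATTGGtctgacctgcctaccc
H2-Aa, chr17:34287844-34287953, − strand: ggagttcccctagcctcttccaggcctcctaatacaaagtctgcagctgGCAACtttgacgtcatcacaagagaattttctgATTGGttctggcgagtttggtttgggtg

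The 4 motifs were searched on both strands, and the matches printed do not overlap each other. The kappa-B letters GGGGATTCC occurred in the promoters of H2-D1, H2-K1, H2-Q6 and H2-Q7, and in 0.250% of the 32851 promoters given for all genes. The core of the interferon response element was searched as GAAANNGAA alone, which occurred in B2m, H2-T22 and H2-T23 and in 8.56% of all promoters. The letters tttcacttc in the H2-D1 and H2-K1 stretches resemble this core on the other strand at another spacing, which was not searched. A promoter without a match can therefore still hold such an element. The Y box ATTGG occurred in 23 of the 26 class I and in 8 of the 8 class II promoters, against 37.4% of all promoters. The RFX core GCAAC occurred in 7 class I and 6 class II genes, against 35.2% of all promoters. H2-D1 and H2-K1 carried the same kappa-B letters in nearly the same surroundings. A match describes letters, and binding was not measured.

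The measured value was the RPKM, the reads of a gene scaled to its length and to the mapped reads of its library, so levels can be compared between genes. The libraries held an estimated 3463538 to 5832101 mapped reads, recovered from the steps of the RPKM values themselves. A gene was tested where its RPKM reached 1 in at least 2 libraries, which 12514 genes did. Of the members, 19 passed and 33 did not. H2-Eb1 and H2-T24 passed through control libraries alone, and H2-Q7 through LAMZ libraries alone. Changes are log2 fold changes of RPKM + 1 from limma, fitted to the 4 groups together, and adjusted p values are those of limma after Benjamini-Hochberg adjustment over all genes tested. Adding 1 understates the change of low genes. Where libraries of 2 groups are said not to overlap, the share of all tested genes without overlap was not counted. Such statements describe the values alone. Osteoblast markers were present in all libraries, with Col1a1 the highest of the list in each. Of the 9 listed, all tested, 6 were higher with LAMZ at an adjusted p under 0.05 on each day and 0 lower. Of all tested genes, 4.35% at day 7 and 6.96% at day 14 were higher at that threshold. Macrophage markers were not evenly spread either. Their summed RPKM was 465 to 606 in day 7 control libraries and 1134 to 1178 in day 14 control libraries, against 7.25 to 9.27 in the 4 LAMZ libraries, where C1qa, C1qb, C1qc, Tyrobp and Laptm5 were listed at 0. In bulk RNA, fewer cells of a type and less RNA per cell cannot be told apart. A pair of libraries stood apart from their replicates. The day 7 control replicate 2 had a summed RPKM of 177 over 15 interferon-stimulated genes, against 57.9 in replicate 1. The day 14 control replicate 1 alone had raised values of several class II genes and of the B cell receptor genes Cd79a (1.15 RPKM, against 0.152 in replicate 2) and Cd79b (0.521 against 0.155).

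Class I genes made up most of the signal. Their 36 RPKM values summed to 354 and 344 in the day 7 control libraries and to 207 and 220 with LAMZ, and to 562 and 440 in the day 14 control libraries and 272 and 280 with LAMZ. The control mean was therefore 1.64 times the LAMZ mean at day 7 and 1.82 times at day 14. The 12 class II genes summed to 14.6, 11.1, 13.8 and 18.4 in the same order at day 7 and to 29.4, 15.2, 22.5 and 23.4 at day 14. The class II sums of control and LAMZ libraries overlapped on each day, whereas the class I sums did not. B2m, H2-D1, H2-K1 and Tapbp together held 83.9% to 89.3% of the class I sum in every library.

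At day 7, 8 members passed the threshold, all of them class I genes that were lower with LAMZ, whereas 8.49% of all tested genes were called lower and 4.35% higher. They were B2m, H2-D1, H2-Q4, H2-T22, H2-M3, Tap1, Tap2 and Tapbp. At day 14, B2m, H2-D1, H2-Q4, H2-T22, Tap2 and Tapbp were lower, against 16.0% of all tested genes called lower, and H2-Ab1 and H2-T-ps were higher, against 6.96% called higher. The median log2 fold change of the 13 tested class I genes was −0.84 at day 7 and −0.57 at day 14, with 11 of the 13 below 0 on each day. Over all tested genes the median was −0.08 and −0.15, with 59.9% and 64.7% below 0. The median of the 5 tested class II genes was 0.38 at day 7 and −0.50 at day 14. These medians describe the genes that passed the filter on low values and not all 52 members. Without day 7 control replicate 2, 3 members (H2-D1, Tap2 and Tapbp) stayed past the threshold at day 7, and without day 14 control replicate 1, 4 (B2m, H2-D1, Tapbp and H2-Ab1) at day 14.

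Libraries were left out in turn. The file of day 7 LAMZ replicate 1 names its column differently from the other 7, without the treatment, and its group rests on the sample label. The day 7 calls of H2-D1 and Tapbp were lost without day 7 LAMZ replicate 1 (adjusted p = 0.0505 and 0.0701), that of Tap2 without LAMZ replicate 2 (adjusted p = 0.0647) and that of B2m without any one of the 4 day 7 libraries (adjusted p = 0.0515 to 0.114). H2-Q4 at day 7 was lost without day 7 control replicate 2 or LAMZ replicate 1 (adjusted p = 0.0781 and 0.119). H2-T22 and Tap1 were lost without either of those or LAMZ replicate 2 (adjusted p = 0.0505 to 0.166), and Tap1 also without either day 14 LAMZ library (adjusted p = 0.0532 and 0.0531). At day 14, B2m, H2-D1 and Tapbp stayed past the threshold in each of 18 alternative settings. H2-Ab1 was lost without day 14 LAMZ replicate 1 (adjusted p = 0.0564), H2-Q4 without that library or control replicate 1 (adjusted p = 0.067 and 0.0613), and H2-T22 without any one of the 4 day 14 libraries (adjusted p = 0.0606 to 0.138). Each log2 fold change named here kept its sign.

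**Figure D1:**
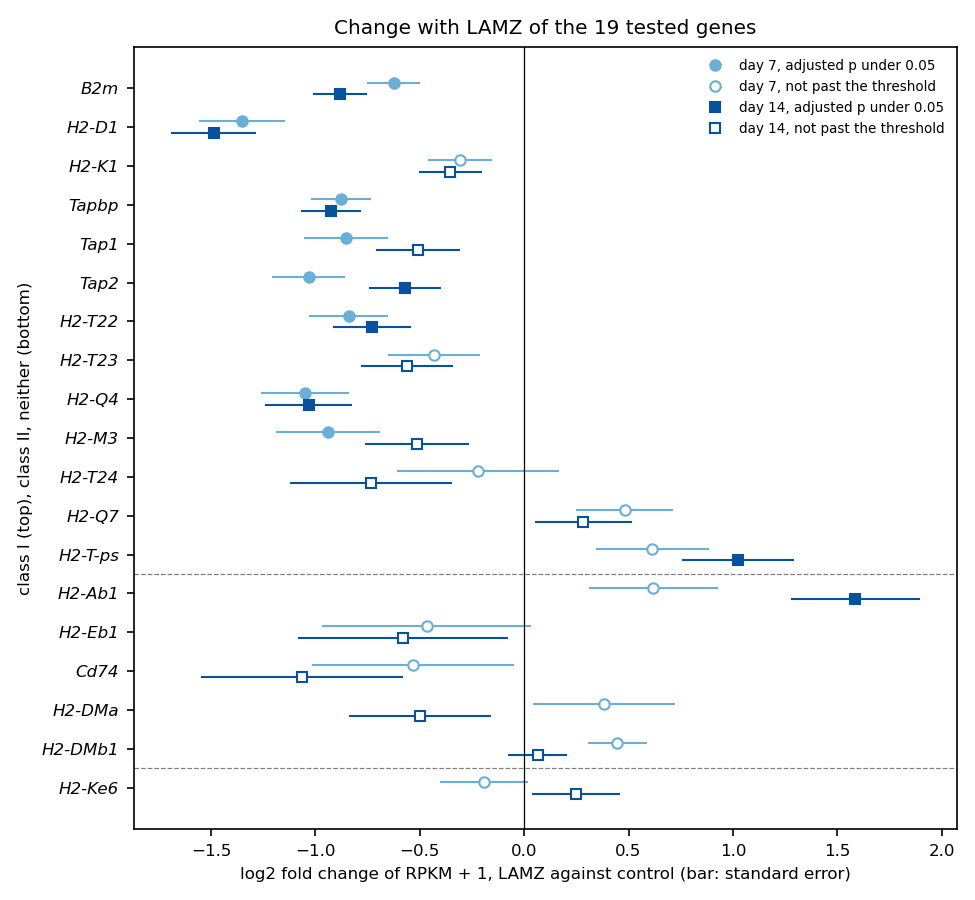
Log2 fold change of RPKM + 1 with LAMZ against control (x axis) for the 19 tested members (y axis, class I above, class II in the middle, H2-Ke6 below), at day 7 (circles) and day 14 (squares), with the standard error as bars and filled symbols for an adjusted p under 0.05. H2-D1 lies farthest to the left among the filled symbols, at −1.35 and −1.49, and H2-Ab1 farthest to the right, at 1.59 on day 14.

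The light chain was the most abundant member. B2m (ENSMUSG00000060802), on chromosome 2 from 122147686 to 122153083 of GRCm38, encodes β2-microglobulin, with which class I heavy chains pair. Its RPKM at day 7 was 164 and 161 in control libraries and 104 and 106 with LAMZ. At day 14 it was 262 and 212 in control libraries and 126 and 129 with LAMZ. The LAMZ libraries lay below the control libraries on each day, with no overlap. The means were 163 ± 1.61 (SD, n = 2) and 105 ± 1.32 at day 7, and 237 ± 35.1 and 127 ± 2.15 at day 14. The log2 fold change was −0.63 (standard error 0.13, adjusted p = 0.0181) at day 7 and −0.88 (standard error 0.13, adjusted p = 0.00246) at day 14. These values rest on 382 to 1208 reads per library.

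The classical heavy chains carry most peptides shown to CD8 T cells. H2-D1, on chromosome 17 from 35262730 to 35267499, had an RPKM of 54.1 and 38.0 in day 7 control libraries and 16.7 and 17.6 with LAMZ. At day 14 it was 103 and 72.4 in control libraries and 29.5 and 30.7 with LAMZ. Each LAMZ value was below every control value of either day. The log2 fold change was −1.35 (standard error 0.20, adjusted p = 0.00523) at day 7 and −1.49 (standard error 0.20, adjusted p = 0.00197) at day 14, a control mean 2.68 and 2.91 times that with LAMZ. H2-K1, on the same chromosome from 33996017 to 34000347, had an RPKM of 54.8 and 53.2 in day 7 control libraries and 40.5 and 46.7 with LAMZ. At day 14 it was 84.1 and 64.0 in control libraries and 54.9 and 59.6 with LAMZ. The groups did not overlap within a day, yet the change did not pass the threshold. Its log2 fold change was −0.31 (95% interval −0.66 to 0.04, adjusted p = 0.236) at day 7 and −0.35 (−0.70 to −0.0016, adjusted p = 0.135) at day 14. The day 7 interval includes 0 and leaves room for a fall, and the day 14 interval, which is not adjusted, lies just below 0. With every library rescaled to the same sum of RPKM, H2-K1 was called lower on each day, at −0.61 and −0.72 on the log2 scale. That rescaling moved the median of all tested genes to −0.31 and −0.43.

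The ratio of H2-D1 to H2-K1 within a library does not depend on how libraries are scaled. It was 0.987 and 0.713 in day 7 control libraries and 0.413 and 0.376 with LAMZ. At day 14 it was 1.22 and 1.13 in control libraries and 0.538 and 0.516 with LAMZ. The ratio was thus lower in the LAMZ libraries on each day, by 1.12 on the log2 scale on average (higher in 4 of 4 control libraries than in any LAMZ library). An exact two-sided permutation test that relabelled the libraries within days gave p = 0.0556, the smallest that its 36 relabellings allow, and p = 0.0833 after adjustment over 9 such ratios. The 9 numerators were the members called lower with LAMZ averaged over the days in these same libraries, and H2-K1 was not called. H2-Q7, H2-T-ps and H2-T24 were not among them. Lower ratios follow in part from that choice, so this test is no independent support. The ratio to H2-K1 was lower with LAMZ on each day without overlap for H2-D1, B2m, Tapbp, Tap1, H2-Q4 and H2-T22, and overlapped on at least 1 day for Tap2, H2-M3 and H2-T23. Of 50-base windows of the transcripts, 12.8% for H2-D1 and 9.63% for H2-K1 also occur in other genes, mostly other H2 genes, and how shared reads were counted is not given in the sources used here.

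**Figure D2:**
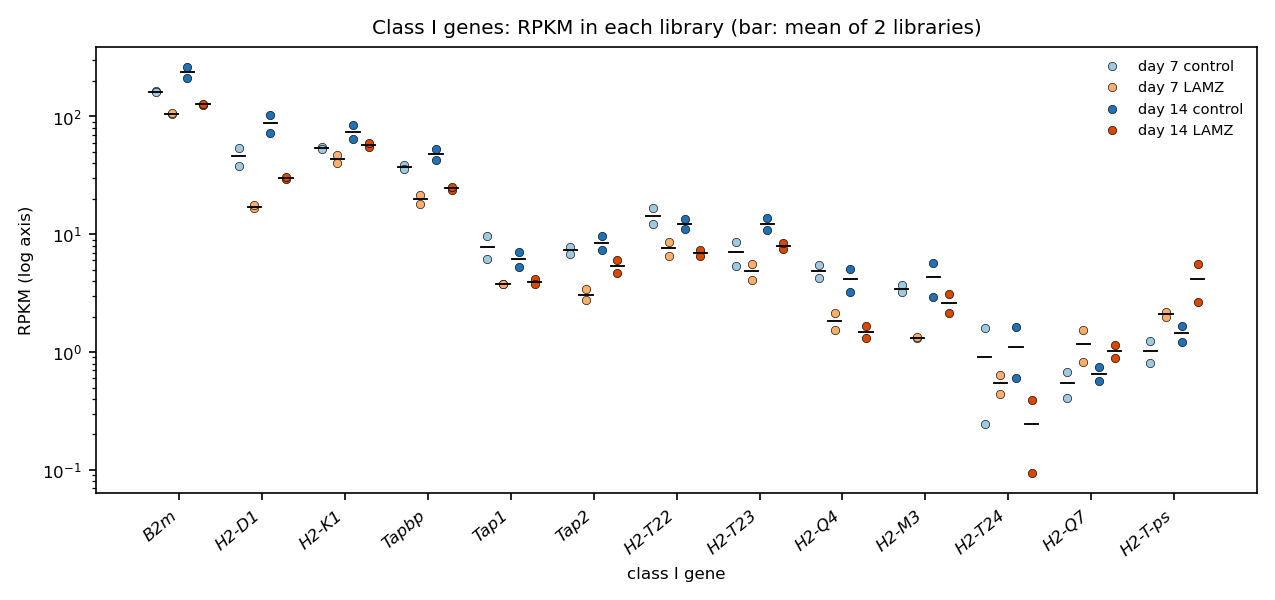
RPKM on a log axis (y axis) of the 13 tested class I genes (x axis) in each of the 8 libraries, as points coloured by group, with a bar at the mean of the 2 libraries of a group. B2m is the highest and ranges from 104 to 262 RPKM, and H2-D1 shows a wider gap between control and LAMZ than H2-K1, which starts from a like level.

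The non-classical heavy chains, which present restricted sets of ligands to specialised T cells and natural killer cells, ranged below the classical ones. H2-T22, a ligand of some γδ T cells, had an RPKM of 12.1 and 16.7 in day 7 control libraries and 6.52 and 8.66 with LAMZ, and 13.4 and 11.1 against 7.38 and 6.60 at day 14. It was lower on each day without overlap, with a log2 fold change of −0.84 (adjusted p = 0.0260) and −0.73 (adjusted p = 0.0275). H2-Q4 had 4.29 and 5.45 RPKM in day 7 control libraries and 1.54 and 2.14 with LAMZ, and 5.09 and 3.24 against 1.32 and 1.66 at day 14. Its log2 fold change was −1.05 (adjusted p = 0.0170) and −1.03 (adjusted p = 0.0105), next in size to that of H2-D1 among the class I genes called lower on both days. H2-M3, which presents N-formylated peptides of bacteria and mitochondria, had 3.69 and 3.21 RPKM in day 7 control libraries and 1.30 and 1.33 with LAMZ, a log2 fold change of −0.94 (adjusted p = 0.0460). This call rested on 8 to 20 reads per library and stayed past the threshold in 6 of 17 alternative settings. At day 14, the values of H2-M3 overlapped, at 5.70 and 2.92 against 3.10 and 2.14.

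H2-T23 encodes Qa-1, a ligand of the natural killer cell receptor CD94/NKG2. Its RPKM was 5.42 and 8.59 in day 7 control libraries and 5.60 and 4.12 with LAMZ, which overlapped, and 13.8 and 10.9 against 7.48 and 8.51 at day 14, which did not. The log2 fold change was −0.43 (95% interval −0.94 to 0.08) and −0.56 (−1.07 to −0.05), and neither day passed the threshold (adjusted p = 0.248 and 0.105). Averaged over the days it was called lower, by 0.50 on the log2 scale (adjusted p = 0.0453), a call that stayed in 5 of 17 alternative settings and was lost with the replicate block and without any one of 7 of the 8 libraries, with adjusted p up to 0.179 over all settings. H2-T24 was near the limit of detection, from 0.0939 to 1.62 RPKM with 1 to 19 reads, and passed the threshold on neither day. H2-Q7, which encodes a Qa-2 antigen, lay in the other direction, at 0.684 and 0.406 RPKM in day 7 control libraries and 0.825 and 1.53 with LAMZ, and at 0.742 and 0.571 against 0.884 and 1.15 at day 14. Its LAMZ values were above the control values on each day, with adjusted p = 0.222 and 0.418.

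H2-T-ps, an unprocessed pseudogene on chromosome 17 from 36109234 to 36111658, was the class I symbol that rose. It had 1.24 and 0.812 RPKM in day 7 control libraries and 2.20 and 1.98 with LAMZ, and 1.22 and 1.66 against 5.62 and 2.69 at day 14. The log2 fold change was 0.61 (adjusted p = 0.184) at day 7 and 1.02 (adjusted p = 0.0292) at day 14, from 3 to 35 reads per library. The day 14 call stayed in 10 of 17 alternative settings and was lost without day 14 control replicate 1 or 2 (adjusted p = 0.131 and 0.0784), day 14 LAMZ replicate 1 (adjusted p = 0.14) or either day 7 LAMZ library (adjusted p = 0.0519 and 0.0515). Gm7030 overlaps it on the same strand and BC023719 on the other, and 29.4% of its windows also occur in other genes, H2-T23 most often, so its reads cannot be assigned with certainty. For H2-Q4, H2-Q7, H2-T22 and H2-T23 that share was 21.8%, 26.4%, 34.5% and 13.6%, with H2-T10 the main partner of H2-T22. H2-M3, Tap1 and Tap2 shared under 1% of their windows.

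Genes of the loading complex were lower as well. Tapbp encodes tapasin, which holds empty class I molecules at the transporter. Its RPKM was 38.4 and 35.8 in day 7 control libraries and 18.2 and 21.4 with LAMZ, and 53.3 and 42.5 against 23.9 and 25.3 at day 14. The groups did not overlap, and the log2 fold change was −0.88 (standard error 0.14, adjusted p = 0.00727) and −0.92 (standard error 0.14, adjusted p = 0.00319). Zbtb22 overlaps Tapbp on the same strand. Tap1 and Tap2 encode the subunits of the transporter that moves peptides into the endoplasmic reticulum. Tap1 had 6.15 and 9.60 RPKM in day 7 control libraries and 3.81 and 3.82 with LAMZ (log2 fold change −0.85, adjusted p = 0.0301), and 7.01 and 5.25 against 4.16 and 3.78 at day 14 (−0.51, adjusted p = 0.106). Tap2 had 7.86 and 6.80 RPKM in day 7 control libraries and 3.41 and 2.74 with LAMZ, a log2 fold change of −1.03 (adjusted p = 0.00837). At day 14 it had 7.29 and 9.59 against 4.67 and 6.01, a log2 fold change of −0.57 (adjusted p = 0.0497) that passed in 3 of 18 alternative settings. LAMZ libraries were below control libraries on each day for both subunits.

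NLRC5 is the transactivator of class I genes. Nlrc5 stayed under the filter, at 0.437 and 0.680 RPKM in day 7 control libraries and 0 and 0.113 with LAMZ, and at 0.724 and 0.469 against 0.141 and 0.145 at day 14. This corresponded to 14 to 33 reads in control libraries and 0 to 7 in LAMZ libraries, without overlap on either day. Fitted without a filter, its log2 fold change was −0.56 (adjusted p = 0.127) at day 7 and −0.48 (adjusted p = 0.130) at day 14, and −0.52 (adjusted p = 0.0280) on average.

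**Figure D3:**
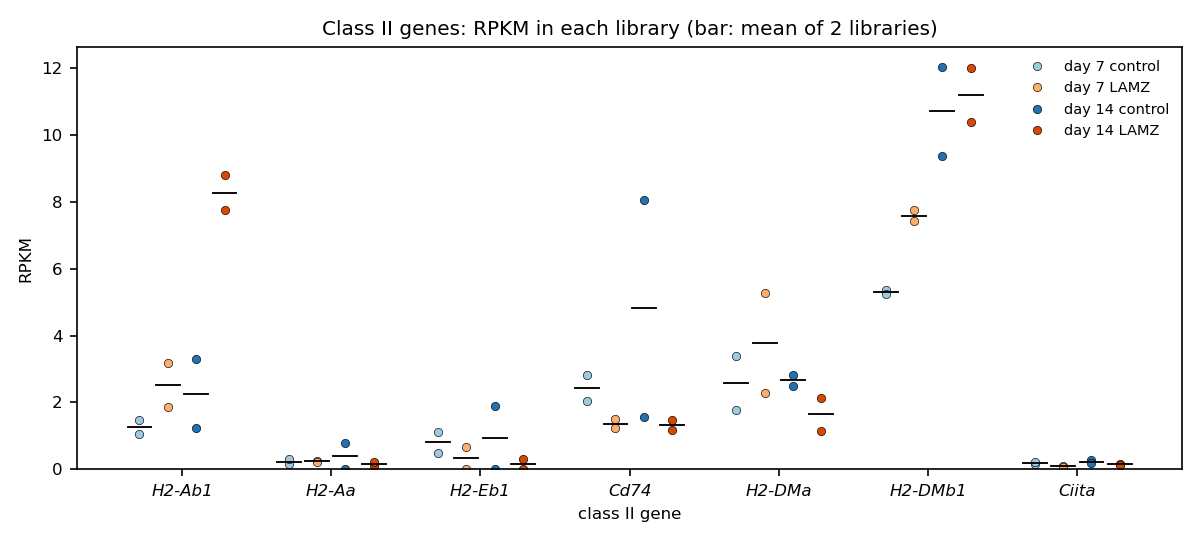
RPKM (y axis) of 7 class II genes (x axis) in each of the 8 libraries, as points coloured by group, with a bar at the mean of the 2 libraries of a group. H2-Ab1 is highest in the day 14 LAMZ libraries, at 8.80 and 7.76, and Cd74 in 1 day 14 control library, at 8.06.

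Class II genes were low and followed no common direction. H2-Ab1, on chromosome 17 from 34257689 to 34269419, encodes the β chain of the I-A molecule. Its RPKM was 1.46 and 1.06 in day 7 control libraries and 1.86 and 3.17 with LAMZ, and 3.30 and 1.22 in day 14 control libraries and 8.80 and 7.76 with LAMZ. LAMZ values were above control values on each day, and the day 14 LAMZ libraries, with 84 and 62 reads, were the highest of all. The log2 fold change was 0.62 (95% interval −0.09 to 1.33, adjusted p = 0.239) at day 7 and 1.59 (standard error 0.31, adjusted p = 0.00871) at day 14. Without day 14 control replicate 1 it was 2.06 (adjusted p = 0.00526). No annotated gene overlaps H2-Ab1, and none of its windows occurs in another gene.

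Other class II chains had few reads. H2-Aa, which encodes the α chain, had 0 to 8 reads per library, with 0.142 and 0.308 RPKM in day 7 control libraries and 0.250 and 0.205 with LAMZ, and 0.795 and 0 against 0.0915 and 0.219 at day 14. H2-Eb1, the β chain of I-E, had 1.12 and 0.488 RPKM against 0 and 0.648 at day 7, and 1.89 and 0 against 0.290 and 0 at day 14, with 0 to 12 reads and adjusted p = 0.596 and 0.444. Cd74, the invariant chain that occupies the groove of new class II molecules, lies on chromosome 18. It had 2.82 and 2.05 RPKM in day 7 control libraries and 1.497 and 1.23 with LAMZ, and 8.06 and 1.57 against 1.46 and 1.16 at day 14. LAMZ values of Cd74 were below control values on each day, yet the log2 fold change of −0.53 and −1.06 did not pass the threshold (adjusted p = 0.524 and 0.154). Without day 14 control replicate 1, the log2 fold change of Cd74 at day 14 was −0.16. That library held the highest value of H2-Aa, H2-Eb1 and Cd74, with 8, 12 and 61 reads, but not of H2-Ab1. The B cell markers summed to 1.77 RPKM in it and to between 0.0652 and 0.439 in the others, and the part of such cells in these values was not tested.

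The exchange factor H2-DM replaces a fragment of the invariant chain with antigenic peptide. H2-DMb1, its β chain, had 5.36 and 5.25 RPKM in day 7 control libraries and 7.42 and 7.76 with LAMZ, and 12.04 and 9.384 against 10.39 and 11.9999 at day 14. LAMZ values were higher at day 7 and overlapped at day 14, with a log2 fold change of 0.45 (95% interval 0.12 to 0.77, adjusted p = 0.0791) and 0.06 (−0.26 to 0.39, adjusted p = 0.776). H2-DMb1 shares 22.7% of its windows with H2-DMb2, which was at 0 in 7 libraries and had 1 read in the other. H2-DMa, the α chain, had 3.39 and 1.76 RPKM against 2.29 and 5.26 at day 7 and 2.50 and 2.83 against 1.15 and 2.12 at day 14, with adjusted p = 0.519 and 0.333. It overlaps CR974462.3 on the same strand and Brd2, CR974462.4 and Gm20493 on the other. Ciita, the transactivator of class II genes, stayed between 0.0731 and 0.284 RPKM, or 2 to 8 reads, in all libraries. H2-Oa, H2-Ob, H2-Eb2 and H2-DMb2 were at 0 in 6 or 7 libraries each.

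H2-Ke6 lies in the H2 region but encodes a hydroxysteroid dehydrogenase of neither class. It had 3.005 to 4.14 RPKM at day 7 and 3.17 to 5.61 at day 14 and passed the threshold on neither day (adjusted p = 0.604 and 0.439). Gm20427 overlaps it on the same strand and shares 70.5% of its windows. Of the 33 members under the filter, 4 (H2-Ea-ps, H2-M10.1, H2-M10.4 and H2-M11) were at 0 in all libraries. The other class I members under the filter, beside Nlrc5, were H2-Bl, H2-K2, H2-M1, H2-M10.2, H2-M10.3, H2-M10.5, H2-M10.6, H2-M2, H2-M5, H2-M6-ps, H2-M9, H2-Q1, H2-Q10, H2-Q2, H2-Q3, H2-Q5, H2-Q6, H2-T10 and H2-T3. Among these, H2-K2 was listed at 1.07 and 0.843 RPKM in the day 14 control libraries and at 0 in the other 6. H2-M10.5-ps1, H2-Pa and H2-Pb belonged to neither class.

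Averaged over both days, 9 members were lower and 2 higher with LAMZ, against 20.3% and 9.12% of all tested genes. The 9 were B2m, H2-D1, H2-Q4, H2-T22, H2-T23, H2-M3, Tap1, Tap2 and Tapbp, and the 2 were H2-Ab1 and H2-T-ps. H2-K1 was at −0.33 (adjusted p = 0.0522). The difference of the change between the days passed the threshold for 0 members in limma, with 0 members at an unadjusted p under 0.05, against 0.623% of all tested genes called. H2-Ab1 came nearest, with a change larger by 0.97 on the log2 scale at day 14 (standard error 0.44, adjusted p = 0.320).

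Time in culture moved few members. In control cells, H2-D1 (log2 fold change 0.91, adjusted p = 0.0472) and H2-DMb1 (0.88, adjusted p = 0.0165) were higher at day 14 than at day 7, against 2.46% of all tested genes called higher and 2.40% lower. In LAMZ-treated cells, H2-D1 (0.78, adjusted p = 0.0422), Tap2 (0.63, adjusted p = 0.0483) and H2-Ab1 (1.42, adjusted p = 0.0211) were higher at day 14, against 5.10% called higher and 9.26% lower. No member was called lower with time in either culture. H2-D1 rose in both, although its call was lost without any one of the 8 libraries in control cells (adjusted p = 0.055 to 0.216) and without any one of the 4 LAMZ libraries in LAMZ-treated cells (adjusted p = 0.129 to 0.178). The other 3 calls were also lost without any one of 3 or more libraries. B2m was higher in each day 14 library than in the day 7 libraries of its treatment, with adjusted p = 0.0584 in control and 0.185 in LAMZ-treated cells. So were H2-K1, H2-T23 and Tapbp, which were not called in either culture (adjusted p = 0.0943 to 0.203). How many of all tested genes were ordered in this way was not counted, so these orderings are description alone.

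The machinery that makes class I peptides was measured by 10 genes, all tested. At day 7, 4 were lower and 0 higher, and at day 14, 5 were lower and 1 higher, to be read against the 8.49% and 16.0% of all tested genes called lower and the 4.35% and 6.96% called higher. Psmb8, a catalytic subunit of the immunoproteasome, had 6.49 and 6.86 RPKM in day 7 control libraries and 1.71 and 1.96 with LAMZ, and 6.74 and 6.47 against 1.504 and 1.42 at day 14. It fell by 1.44 (adjusted p = 0.000353) and 1.63 (adjusted p = 8.8e-05) on the log2 scale, without overlap. Psmb10, another such subunit, fell by 1.12 and 0.73, and Psme2, a subunit of the proteasome activator PA28, by 0.76 and 0.71, called on each day. Psme1, its partner, and Erap1, which trims peptides, were called lower at day 14, at −0.68 and −0.61, and Tapbpl, an editor of peptide loading, at day 7, at −0.96. The chaperones Calr, Pdia3 and Canx, which also fold proteins outside this pathway, were the most abundant of the list. Calr was at 317 and 301 RPKM in day 7 control libraries and 359 and 391 with LAMZ, and rose at day 14 from 206 and 231 to 411 and 336 (log2 fold change 0.77, adjusted p = 0.00656). Canx and Pdia3 were not called.

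Of 6 class II processing genes tested, 3 were lower at day 7 and 4 at day 14, with 0 higher, beside 8.49% and 16.0% of all tested genes called lower. Of these, Ctss reached 1 RPKM in control libraries alone and so could pass the filter only where it was high. Ctss, the cathepsin that trims the invariant chain, had 14.6 and 24.9 RPKM in day 7 control libraries and 67.9 and 45.0 in day 14 control libraries and was listed at 0 in the 4 LAMZ libraries. The lysosomal proteases Ctsb and Lgmn fell by 1.00 and 0.96 on the log2 scale at day 7 and by 1.84 and 1.71 at day 14. Ifi30, a thiol reductase that opens disulfide bonds of antigens, was called lower at day 14 alone, at −0.58, whereas Ctsd, the most abundant at 254 to 420 RPKM, was not called. These proteases also act in lysosomes of other cells.

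Of 10 tested transcription factors of the list, 3 were lower at day 7 (Irf1, Irf2 and Spi1) and 2 at day 14 (Rfx5 and Spi1), with 0 higher. The 2 of 10 at day 14 is near the 16.0% of all tested genes called lower, against 8.49% at day 7, and Spi1 reached 1 RPKM in control libraries alone. Irf1 was at 6.003 and 7.84 against 4.36 and 4.01 at day 7 (−0.60, adjusted p = 0.0393). Spi1, which encodes PU.1 of myeloid cells, was at 1.38 to 6.495 RPKM in control libraries and at 0 to 0.142 with LAMZ. Rfx5, which binds the X box of class II promoters, was lower at day 14 by 0.79 on the log2 scale, and the NF-Y subunits Nfya, Nfyb and Nfyc, which bind the Y box, were not called. Of 4 tested genes of the interferon γ receptor list, Jak1 and Ifngr1 were lower on each day and Ifngr2 at day 14, while Ifng itself was listed at 0 in all libraries. Of 4 class I-like genes outside the H2 complex, Hfe, a regulator of iron uptake, was lower at day 7 and Fcgrt, the neonatal Fc receptor, at day 14. Of 5 costimulation genes, Cd80 and Icosl were tested and not called.

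Interferon-stimulated genes are a separate readout of interferon signalling. Of 11 tested, 8 were lower at day 7 and 3 at day 14, with 0 higher, beside 8.49% and 16.0% of all tested genes. Ifit1, Usp18 and Oas1a reached 1 RPKM in control libraries alone, and without them 6 of the day 7 and 2 of the day 14 calls are left. Isg15 had 10.52 and 60.7 RPKM in day 7 control libraries and 2.48 and 1.02 with LAMZ, and Bst2 24.7 and 42.8 against 8.57 and 8.502. The summed RPKM of the 15 listed genes was 16.8 and 18.03 in day 7 LAMZ libraries, and 138 and 76.2 in day 14 control libraries against 44.2 and 42.7 with LAMZ. In day 7 control replicate 2, where this sum was highest, Tap1, H2-T22, H2-T23 and H2-Q4 were above replicate 1, whereas H2-D1, at 38.0 against 54.1, was below it. So were Tap2, at 6.80 against 7.86, H2-M3, at 3.21 against 3.69, and Tapbp, at 35.8 against 38.4, while B2m was at 161 against 164 and H2-K1 at 53.2 against 54.8. Of the 13 macrophage markers, 11 reached 1 RPKM in control libraries alone, so their number of calls is no support. The other 2, Lyz2 and Cd68, were called lower on each day. B2m, H2-K1, H2-D1 and Tapbp were still measured at 104 to 129, 40.5 to 59.6, 16.7 to 30.7 and 18.2 to 25.3 RPKM in the LAMZ libraries, in which C1qa, C1qb and C1qc were listed at 0. The part of macrophage RNA and of interferon signalling in the lower class I values was not tested.

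**Figure D4:**
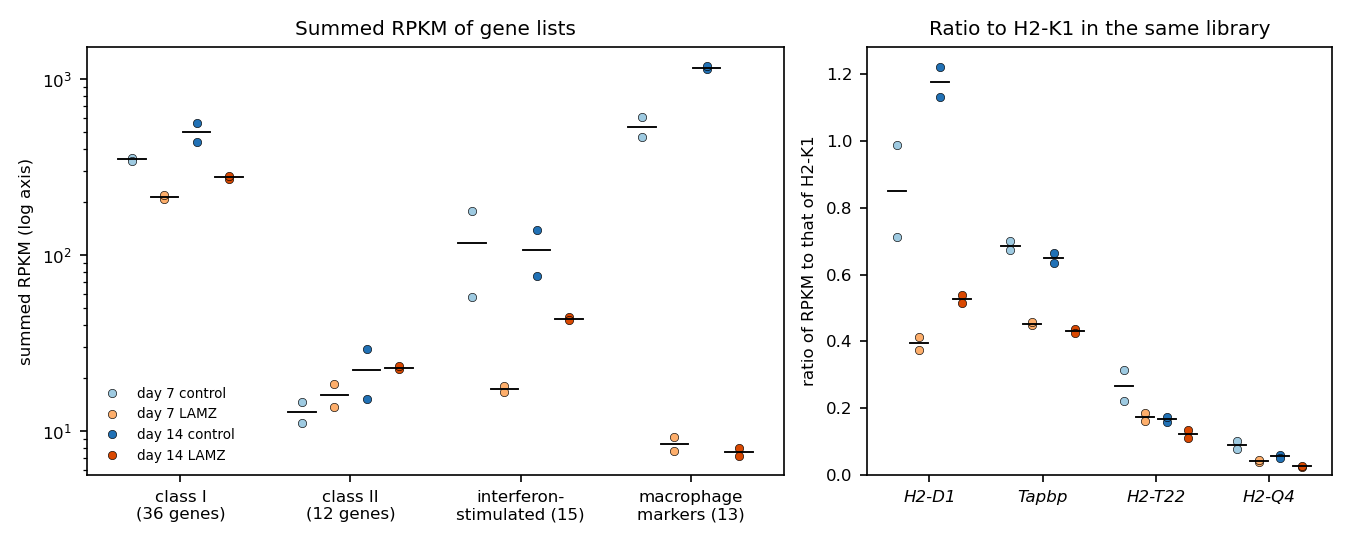
Left, summed RPKM on a log axis of the class I genes, the class II genes, 15 interferon-stimulated genes and 13 macrophage markers in each library. Right, RPKM of 4 class I genes divided by that of H2-K1 in the same library. Points are coloured by group and bars mark the mean of 2 libraries. The class I sum is lower with LAMZ by less than the macrophage sum, which goes from 465 to 1178 in control libraries to 7.25 to 9.27, and the ratio of H2-D1 to H2-K1 is 0.376 to 0.538 with LAMZ and 0.713 to 1.22 in control libraries.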

How the data were processed

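Values were deposited as RPKM per gene symbol, made by the authors from Ion Proton reads with CLC Genomics Workbench. The labels name the build mm10. The version, the annotation and the handling of reads that match several genes are not given in the sources used here, and no scaling between libraries is stated. From each file, 4 entries with repeated symbols were left out. Sample labels gave the groups.

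The members and lists were chosen with earlier results of these data known, so that no list is independent evidence. Classes followed the symbols. Every member that passed the filter was named, and of the other lists the most abundant genes and those past the threshold. From the list of transcription factors, 1 gene is not reported here.

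The filter was an RPKM of 1 or more in 2 or more libraries, which 12514 genes met. The model was fitted to log2(RPKM + 1) with limma 3.58.1 under R 4.3.3, without covariates and with 4 residual degrees of freedom, and its variances were moderated along a trend with the mean. Benjamini-Hochberg adjustment covered every gene tested, at a threshold of 0.05. Contrasts were LAMZ against control on each day and averaged, the difference between the days, and day 14 against day 7 within each treatment. The scripts were first tested on simulated data.

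The depth of a library was estimated as the number of mapped reads at which low RPKM values of single-exon genes come out whole. At a tolerance tighter than 0.05 reads, 92.8% to 95.1% of 954 to 1619 values did so. Reads of a member follow from this depth and its gene length, or the length at which its own reads are whole. They describe counting error alone, as PCR copies are not separate molecules. Positions, overlaps and transcripts come from GENCODE M21 on GRCm38, which mm10 denotes, and promoters from RefSeq.

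Alternatives were pseudocounts of 0.1 and 5, no filter or a minimum of 5 RPKM, 3 scalings between libraries, a replicate block, only the groups compared, no trend, and each library left out in turn.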

Additional observations from a re-analysis of the deposited data

How the results depend on the processing

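At day 7, 8 members passed the threshold. This became 4 without a filter on low values and with median-centred libraries, and 5 with quantile normalization and with only the 2 groups compared. Leaving out 1 library gave 1 to 8, with 1 without day 7 LAMZ replicate 1, 3 without LAMZ replicate 2 and 3 without control replicate 2. At day 14, the 8 calls became 3 to 8 when 1 library was left out, 3 without day 14 LAMZ replicate 1 and 4 without control replicate 1, and stayed within 1.5 times under the other 10 settings. The average gave 8 to 12 without 1 library against 11, and the difference between the days gave 0 in every setting run. In the control culture over time, the 2 calls became 1 with a pseudocount of 0.1, without a filter and without the trend, 6 with the same sum of RPKM, 0 with only the 2 groups compared, and 0 to 2 without 1 library. In the LAMZ culture over time, the 3 calls became 1 with a pseudocount of 5 and without the trend, 0 without a filter, 7 with the same sum of RPKM, and 0 to 4 without 1 library. Where a library is left out, its group has 1 library, which is assumed to vary like the others. The cause of these shifts was not tested, beyond fewer libraries or more genes tested.

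The log2 fold change changed sign for 5 members, none of them called on that day. At day 7, H2-DMa ranged from −0.084 to 0.85 and H2-T24 from −0.75 to 0.31 without 1 library. At day 14, without 1 library, H2-DMb1 ranged from −0.10 to 0.23, H2-Eb1 from −1.35 to 0.18 and H2-Ke6 from −0.072 to 0.57. With the same sum of RPKM, H2-DMb1 was at −0.28 and H2-Ke6 at −0.046 at day 14. Of 668 single gene values under alternative settings, 580 kept their direction and their side of the threshold, 71 lost and 9 gained a call.

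The balance of all calls depended on the scaling. Of the genes called at day 7 and day 14, 33.9% and 30.3% were higher with LAMZ as deposited, 8.59% and 7.98% with the same sum, 53.5% and 56.3% with median-centred libraries and 45.7% and 47.9% with quantile normalization. H2-D1 and Tapbp were called lower on both days under each of these scalings.

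Deviations of same-numbered libraries from their group means correlated at −0.0342 to 0.0776 across genes, so the numbers are no sign of pairing. With the replicate number as a block, 8 members were called at day 7, 7 at day 14, 10 on average, 2 in the LAMZ culture over time, 0 for the difference between the days and 2 in the control culture over time. Depth limits the class II genes most, since several had under 10 reads in a library.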
